A study of Monascus purpureus with 6 samples.

Results

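The nearly silent genes of *M. purpureus* are those with almost no reads in either strain of the study: they were chosen by their read counts, which reached 10 in at most 2 of the 6 RNA-seq libraries. By this rule, 130 of the 7491 listed genes (1.74%) were nearly silent. The rule used the counts of all 6 libraries, so those counts and every comparison of them between the strains are given as a description. The places of the genes along the scaffolds and the counts of their neighbours did not enter the rule, except that a neighbour called "other" had to fail it.

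*M. purpureus* YY-1 is the parental strain, of the mould species used to make red yeast rice, and winter is a hygromycin-resistant insertional mutant of it that produces little citrinin, made by bringing the hygromycin B resistance cassette of the plasmid pHPH into protoplasts. RNA from mycelia was sequenced after 8 days of cultivation, with 3 libraries of YY-1 and 3 of winter, each named as replicates a, b and c, which the study describes as independent biological triplicates. The winter strain is 1 transformant, so its libraries are repeats of 1 mutant line. Library totals ran from 9661178 to 10595943 in YY-1 and 15194009 to 16004947 in winter, and the combined total of winter was 1.54 times that of YY-1. A gene such as C3.1029 is named by its scaffold and its number in order along it, and these identifiers paired with no gene names here. The labelled tissue therefore could not be checked against marker genes, and no roles are given for the nearly silent genes.

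Filamentous fungi transcribe many of their genes only under certain conditions of growth, nutrition or development. Genes of secondary metabolism are the best known example: they often lie side by side as clusters, and a whole cluster can be without transcripts in a given culture. The regions near the ends of fungal chromosomes are known for such conditional genes and for silenced chromatin. A gene catalogue made by prediction can also list models that are rarely or never transcribed.

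Most nearly silent genes were not at 0. Of the 130 genes, 123 had at least 1 read in YY-1 and 123 had at least 1 read in winter, and 118 had reads in both strains. A read was found in every YY-1 library for 90 genes and in every winter library for 89 genes, and 70 genes had a read in all 6 libraries. Only C3.1029 and C4.230 were at 0 throughout, which allows up to 0.0389 reads in each 1000000 over the 6 libraries. All intervals and limits of this kind cover counting error only.

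The counts of the genes were spread over a narrow low range. Summed over the 6 libraries, the median gene had 25.5 reads. There were 15 genes with a sum of at most 5, 41 with a sum of 6 to 19 and 74 with a sum of 20 or more. Together the 130 genes took 3321 reads, or 43.1 of each 1000000 reads counted. In YY-1 97 genes reached a count of 10 in no library, and in winter 101 genes did not.

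Each library showed nearly the same number of the genes. In the order of replicates a, b and c, 108, 113 and 106 genes had a read in YY-1 and 105, 107 and 110 in winter, and the ranges of the strains overlapped. Counts of 3 libraries are given in that order throughout. The median count of a nearly silent gene was 4, 4 and 2 in the YY-1 libraries and 3, 4 and 3 in the winter libraries. A count of 10 or more was reached by 17, 18 and 4 genes in YY-1 and by 6, 21 and 9 genes in winter. The libraries with the fewest genes at that level were replicate c of YY-1 and replicate a of winter, and winter replicate b had the most.

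**Figure D1:**
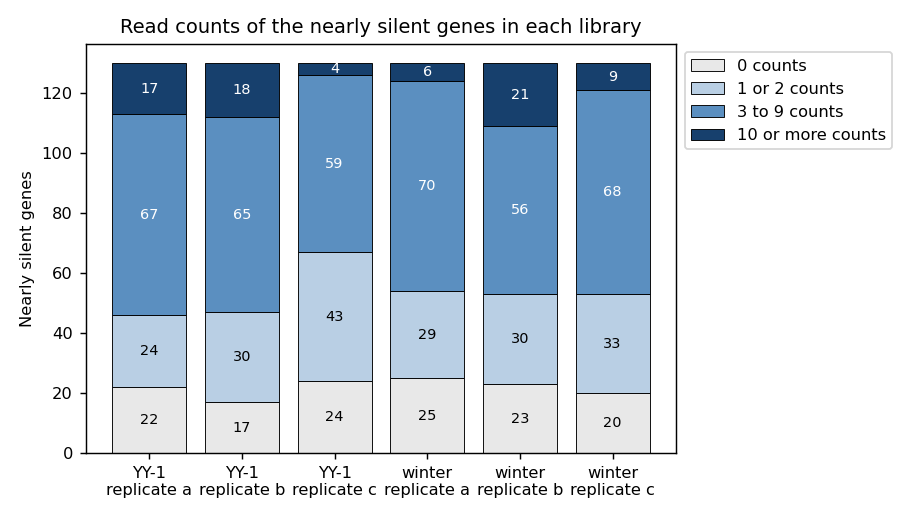
Number of nearly silent genes (y axis, of 130) at 0, 1 or 2, 3 to 9, and 10 or more reads in each of the 6 libraries (x axis). Between 17 and 25 genes were at 0 in a library, and 56 to 70 genes had 3 to 9 reads.

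The equal number of genes with reads has to be read against the depth, because the winter libraries were deeper. With every library scaled down to the smallest total, the expected number of genes with any read was 122.6 in YY-1 and 118.7 in winter, and the expected number with a read in every library was 88.6 in YY-1 and 73.6 in winter. These numbers were not tested against each other, because the same counts chose the genes.

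For 10 genes there were reads in 1 strain only, and their counts were very low. Reads in winter alone were found for C3.1030, C5.72, C7.248, C8.474 and scaffold00033.2, and reads in YY-1 alone for C2.1005, C3.731, C4.796, C4.903 and scaffold00023.22. The sums of these genes ran from 1 to 10, and 5 of them had 1 read in all. A count of 0 allows up to 0.0987 reads in each 1000000 over the 3 YY-1 libraries and 0.0642 over the 3 winter libraries, so an absence from either strain was not detectable at this depth. The highest of them was C8.474 with 0, 0 and 0 reads in YY-1 and 3, 5 and 2 in winter. The second was C2.1005 with 0, 3 and 2 reads in YY-1 and none in winter. No fold is given for these genes, and the strains overlapped in C2.1005, whose count was also 0 in YY-1 replicate a.

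The genes nearest the rule's limit had a third-highest count of 9, and 13 genes were at that value. C3.38 had 11, 16 and 9 reads in YY-1 and 4, 2 and 3 in winter, and C4.551 had 5, 10 and 9 in YY-1 and 4, 15 and 7 in winter. On the other side of the limit, 13 genes had a third-highest count of 10. Among those, C7.611 had 14, 7 and 5 reads in YY-1 and 11, 10 and 7 in winter, and C2.1173 had 10, 7 and 7 in YY-1 and 9, 19 and 17 in winter. The counts therefore pass without a gap from the nearly silent genes to the next higher ones. A count of 10 was reached in exactly 0, 1 and 2 libraries by 78, 29 and 23 genes, and in exactly 3, 4 and 5 libraries by 56, 50 and 59 genes.

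The nearly silent genes were unequally divided among the scaffolds. The 8 large scaffolds C1 to C8 held 124 of the genes, 1.68% of their 7394 gene models. C4 and C3 had the highest shares, with 23 of 913 (2.52%) and 26 of 1037 (2.51%). C1 had the lowest share, with 10 of 1285 (0.778%), although it is the scaffold with the most genes. The other scaffolds had 20 (1.70%) on C2, 10 (1.20%) on C5, 13 (1.50%) on C6, 9 (1.28%) on C7 and 13 (2.2%) on C8.

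The 20 small scaffolds together held 6 nearly silent genes among 99 models (6.06%). Of these, scaffold00023 had 3 of 57 genes, scaffold00028 had 1 of 4, scaffold00033 had 1 of 2, and scaffold00050 had its 1 gene. That single gene, scaffold00050.1, had 5, 2 and 1 reads in YY-1 and 1, 3 and 1 in winter. The other 16 small scaffolds held none.

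**Figure D2:**
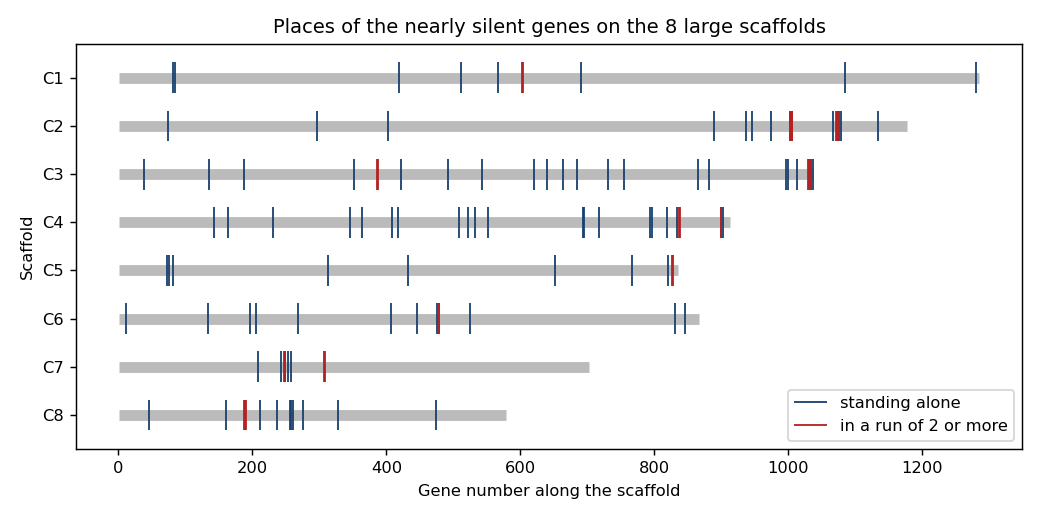
Place of each nearly silent gene by gene number (x axis) on scaffolds C1 to C8 (y axis). Grey bars span the genes of a scaffold, blue lines mark genes standing alone and red lines genes in runs of 2 or more. The last genes of C3 and the stretch of C2 above gene 1000 are the densest.

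Near the scaffold ends the share of nearly silent genes was higher than in the interior, and the genes there lay at a few of the ends. Within 20 genes of an end lay 17 of the 130 genes (13.1%) against 5.37% of all gene models. Some of the 17 lay on scaffold00028, scaffold00033 and scaffold00050, which are so short that every gene is near an end. On C1 to C8 alone the shares were 11.3% of the nearly silent genes and 4.33% of the models. On C1 to C8, 9 of the 160 models within 10 genes of an end were nearly silent (5.63%), then 5 of 160 at 11 to 20 genes (3.13%), 8 of 480 at 21 to 50 genes (1.67%), and 90 of 5794 at more than 100 genes (1.55%). The 14 genes within 20 of an end of C1 to C8 fell on 5 of the 16 ends. The last 20 genes of C3 held 6 of them, the last 20 of C4 and of C5 held 3 each, the last 20 of C1 held 1 and the first 20 of C6 held 1. The other 11 ends held none. On the large scaffolds without C3, the share was 2.14% (3 genes) within 10 genes of an end and 3.57% (5 genes) at 11 to 20 genes. At more than 100 genes it was 1.49%. With the small scaffolds included, 11 genes lay within 20 of an end without C3.

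The end of C3 was the densest of the scaffold ends: 6 of its last 9 genes were nearly silent. C3.1029 was at 0, and C3.1030 had 1 read, in winter replicate b. C3.1032 had 5, 1 and 3 reads in YY-1 and 11, 12 and 8 in winter. C3.1033 had 0, 1 and 0 in YY-1 and 4, 2 and 2 in winter. For both of these genes all winter libraries were higher than all YY-1 libraries. C3.1034 had 2, 0 and 0 reads in YY-1 and 3, 2 and 1 in winter, and C3.1037, the last gene of the scaffold, had 4, 2 and 0 in YY-1 and 1, 6 and 0 in winter. The strains overlapped in these last 2.

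Between the nearly silent genes of the C3 end lay genes with more reads. C3.1031 had 164, 152 and 69 reads in YY-1 and 37, 35 and 38 in winter, or 12.1 ± 4.55 CPM against 2.44 ± 0.192 CPM (SD, n = 3 each), where CPM are reads per 1000000 after TMM scaling of the libraries. It was called lower in winter (log2 fold change -2.31 with a standard error of 0.30, edgeR adjusted p = 0.000154). C3.1035 had 274, 392 and 241 reads in YY-1 and 629, 594 and 550 in winter, or 0.46 higher in winter on the log2 scale (standard error 0.16, edgeR adjusted p = 0.0363). That call was lost when a library was left out (highest edgeR adjusted p = 0.121). C3.1036 had 16, 17 and 21 reads in YY-1 and 22, 10 and 15 in winter, and the strains overlapped.

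Many of the nearly silent genes lay next to each other. In 14 runs of consecutive gene numbers stood 35 of the 130 genes (26.9%), while 95 genes stood alone. There were 9 runs of 2 genes, 4 runs of 3 and 1 run of 5. Of the 255 places directly beside a nearly silent gene, 42 (16.5%) were held by another one, where such genes made up 1.74% of all listed genes. With 1 other gene allowed between them, 45 genes formed 16 groups, and with 2 allowed 53 genes formed 18 groups. The densest windows of 10 genes held 6 nearly silent genes, and they lay on C2 between genes 1067 and 1080 and at the end of C3.

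The longest run was C2.1002 to C2.1006. C2.1002 had 3, 3 and 1 reads in YY-1 and 5, 1 and 0 in winter, and C2.1004 had 4, 5 and 2 in YY-1 and 3, 5 and 7 in winter. C2.1006 had 2, 1 and 4 reads in YY-1 and 1, 3 and 0 in winter. These 3 genes overlapped between the strains. C2.1003 differed, with 4, 10 and 3 reads in YY-1 and 0, 2 and 0 in winter, and C2.1005 had its 5 reads in YY-1 alone. The run was bordered on 1 side by C2.1001, itself low with 6, 10 and 16 reads in YY-1 and 15, 15 and 13 in winter. On the other side stood C2.1007, with 1093, 1282 and 1282 reads in YY-1 and 1359, 2089 and 1646 in winter. The step from nearly no reads to more than 1000 thus took place between neighbouring genes, and neither border gene passed the test between the strains (edgeR adjusted p = 0.857 and 0.799).

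The second stretch of C2 was made of C2.1067, the pair C2.1071 and C2.1072, the run C2.1074 to C2.1076, and C2.1078. C2.1074 had 4, 4 and 1 reads in YY-1 and 11, 6 and 6 in winter, with no overlap in raw counts but an overlap in CPM. C2.1075 had 1, 0 and 2 in YY-1 and 3, 4 and 1 in winter, and C2.1076 had 4, 4 and 4 in YY-1 and 1, 2 and 7 in winter. Both of these overlapped. The other genes between C2.1071 and C2.1078 were low as well. C2.1073 had 18, 23 and 20 reads in YY-1 and 19, 28 and 23 in winter. C2.1077 had 5, 3 and 19 in YY-1 and 18, 8 and 16 in winter. C2.1070, beside C2.1071, had 32, 60 and 38 reads in YY-1 and 22, 31 and 13 in winter. C2.1068 and C2.1069 are not described here.

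On C7 the run was C7.247 to C7.249. C7.247 had 6, 6 and 4 reads in YY-1 and 11, 10 and 4 in winter, C7.248 had 1 read in all, in winter replicate c, and C7.249 had 0, 1 and 1 in YY-1 and 0, 0 and 1 in winter. No gene of this run separated the strains. The genes on either side, C7.246 with 32 to 68 reads and C7.250 with 38 to 62 reads in a library, did not pass the test either (edgeR adjusted p = 0.785 and 0.497).

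The run C8.188 to C8.190 had the most unequal counts, with 98 reads in YY-1 and 15 in winter over its 3 genes. C8.189 had 15, 22 and 8 reads in YY-1 and 1, 1 and 3 in winter. C8.190 had 21, 15 and 6 in YY-1 and 1, 0 and 2 in winter, and C8.188 had 4, 4 and 3 in YY-1 and 2, 2 and 3 in winter. After scaling, every YY-1 library was above every winter library for all 3 genes. The gene on either side of the run, whose counts did not choose it, was also lower in winter. C8.191 had 49, 85 and 75 reads in YY-1 and 19, 11 and 15 in winter, a log2 ratio of winter to YY-1 of -2.72 (standard error 0.31, edgeR adjusted p = 6.75e-05). C8.187 had 129, 152 and 92 reads in YY-1 and 58, 86 and 64 in winter, a log2 ratio of winter to YY-1 of -1.36 (standard error 0.21, edgeR adjusted p = 0.000502). Both kept their calls with any of the 6 libraries left out. Farther out, C8.184, C8.186, C8.192 and C8.194 had lower CPM in every winter library than in any YY-1 library. Of all tested genes, 30.7% were lower in this way and 25.0% were called lower. Whether genes around this run were lower more often than other genes was not tested. The direction was not shared by all genes nearby. C8.185 had 6, 9 and 11 reads in YY-1 and 22, 18 and 23 in winter, and the strains overlapped in C8.193.

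**Figure D3:**
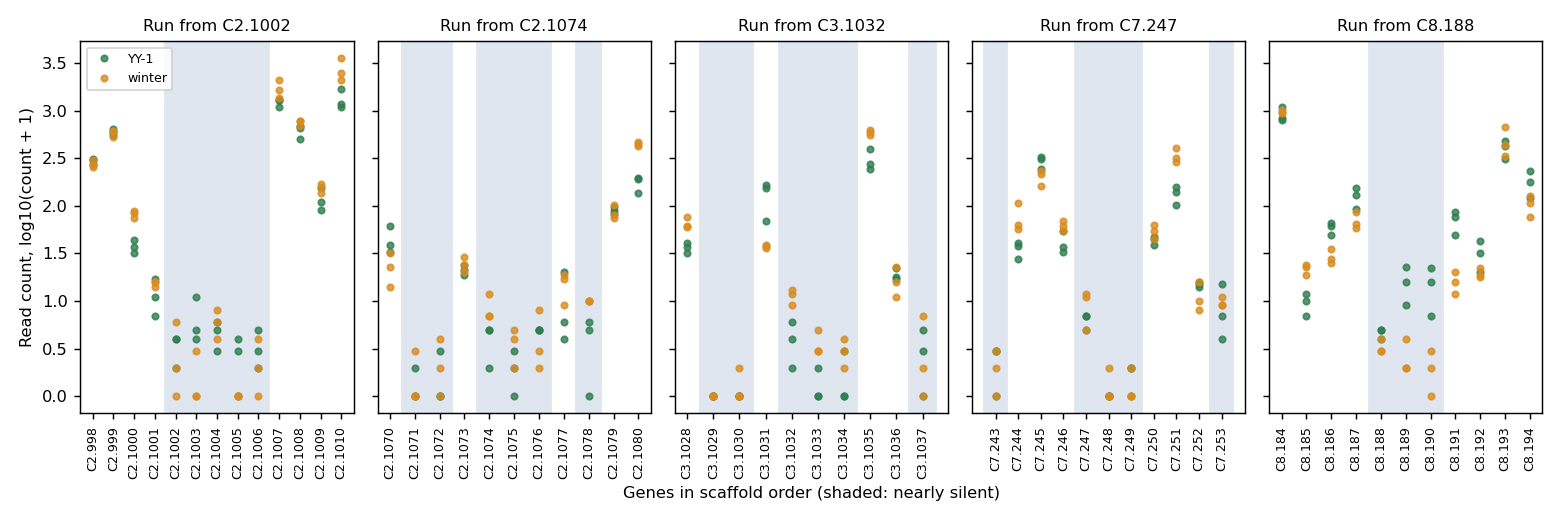
Read counts, as log10 of the count plus 1 (y axis), of the genes in and around the 5 longest runs in scaffold order (x axis). Each point is 1 library, green for YY-1 and orange for winter, and shaded genes are nearly silent. In the run from C8.188 the YY-1 points of C8.189, C8.190 and C8.191 lie above those of winter, while the border gene C2.1007 has more than 1000 reads beside a run with 10 or fewer.

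The pairs differed in their summed level. By summed mean CPM, 7 of the 9 pairs were higher in YY-1 and 2 in winter. Of all 130 nearly silent genes, 87 had a lower mean CPM in winter. The rule let in higher CPM in YY-1, so nothing is read from the split of the pairs. C1.603 and C1.604 had 67 reads in YY-1 and 19 in winter, or 2.08 and 0.424 CPM, and C7.307 and C7.308 had 27 and 12 reads, or 0.864 and 0.270 CPM. C3.386 and C3.387 had 34 reads in YY-1 and 48 in the deeper winter libraries, and their levels were near each other at 1.08 and 1.06 CPM. The pairs higher in winter, C2.1071 with C2.1072 and C3.1029 with C3.1030, had 9 and 1 reads in all. Genes of a pair did not always have like counts: C1.604 had the highest sum of all nearly silent genes, 66, and C1.603 beside it had 5, 5 and 4 reads in YY-1 and 3, 0 and 3 in winter.

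The highest sums show how low the whole list is. C1.604 had 19, 28 and 6 reads in YY-1 and 6, 4 and 3 in winter. C2.74 had 15, 14 and 4 reads in YY-1 and 8, 7 and 9 in winter, and C2.889 had 11, 6 and 18 in YY-1 and 5, 8 and 9 in winter. The strains overlapped in C2.74 and C2.889. They also overlapped in C3.865, which had 7, 15 and 9 reads in YY-1 and 7, 13 and 6 in winter. C7.209 had 9, 14 and 9 reads in YY-1 and 5, 6 and 13 in winter, and its strains separated only after scaling. Sums were 57 for C2.74, C2.889 and C3.865 and 56 for C7.209.

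Scaled to library size, the nearly silent genes together had less RNA in winter. The summed CPM of the 130 genes was 58.4, 55.0 and 44.5 in the YY-1 libraries and 32.9, 40.7 and 36.0 in the winter libraries, with means of 52.6 ± 7.27 and 36.5 ± 3.90 (SD, n = 3 each). The lowest YY-1 library was above the highest winter library, and the log2 ratio of the means was -0.53. In mycelium sequenced in bulk, fewer cells that transcribe a gene and less RNA per cell cannot be told apart. The fixed count of the rule bears on this value: 10 reads stood for 0.857 to 1.04 CPM in a YY-1 library and for 0.634 to 0.681 CPM in a winter library, so that the rule let in higher CPM in YY-1. Under a rule on counts scaled to the median total, which was added after the data had been seen, 136 genes were chosen, 124 of them the same, and the log2 ratio was -0.30.

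By single genes, 87 of the 130 had a lower and 41 a higher mean CPM in winter. In raw reads the split was near even, with 65 genes having more reads in YY-1, 59 more in winter and 6 the same number. The median fitted log2 fold change was -0.61 over the 128 nearly silent genes with any read and -0.03 over all 7489 genes with any read. The difference in depth and the rule's limit move with this shift, and their part in it was not tested.

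In the edgeR fit across all genes, 11 nearly silent genes passed an adjusted p below 0.05 (8.59% of the 128 tested), where 47.1% of all tested genes did. Of these, 9 were lower in winter (25.0% of all genes were) and 2 were higher (22.1% of all genes were). The counts that made these calls also chose the genes, so nothing is read from the share. DESeq2 gave 8 lower and 2 higher, where 24.6% of all tested genes were lower and 24.3% higher by DESeq2. At an unadjusted edgeR p below 0.05 there were 20 lower and 2 higher. The share of all genes at that threshold was not counted, and the rule let in higher CPM in YY-1, so nothing is read from this split. With the replicate letters as a block, 1 gene was higher, because C8.474 was lost. The strains did not overlap in CPM for 34 of the genes, 25 lower and 9 higher in winter (26.2%), against 57.3% of all tested genes, 30.7% lower and 26.6% higher.

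**Figure D4:**
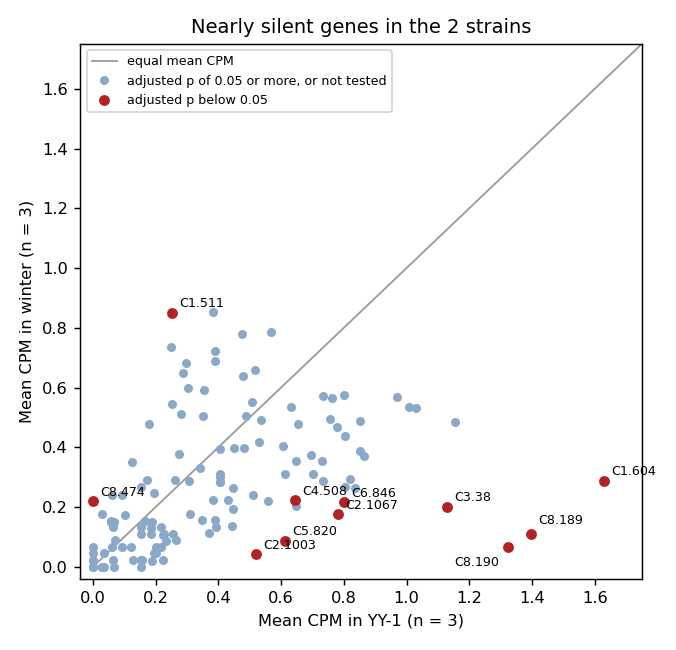
Mean CPM of each nearly silent gene in YY-1 (x axis) and winter (y axis), 3 libraries each, with the line of equal means. Red points are the genes with an edgeR adjusted p below 0.05, of which 9 lie below the line and 2, C1.511 and C8.474, above it.

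The called genes are described here by their values alone, since those values also chose them. C8.189 and C8.190, whose counts are given with the run on C8, had 1.4 ± 0.53 and 1.32 ± 0.722 CPM in YY-1 and 0.112 ± 0.0794 and 0.0678 ± 0.0677 in winter (SD, n = 3 each). The ratio for C8.190 rests on 42 reads against 3 and was 20.1, with an exact 95% interval from counting error alone of 6.43 to 101.5. Both genes had 10 or more reads in YY-1 replicates a and b and fewer in c.

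C3.38, which had no nearly silent gene beside it, had 1.13 ± 0.222 CPM in YY-1 and 0.201 ± 0.0728 in winter (SD, n = 3 each), without overlap. C1.604 had its highest counts in YY-1 replicates a and b, but the 6 reads of YY-1 replicate c equalled those of winter replicate a and the strains separated only after scaling. C5.820 had 5, 6 and 8 reads in YY-1 and 0, 2 and 2 in winter, without overlap.

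C2.1003 had 17 reads in YY-1 against 2 in winter, a ratio of 12.2 with an exact 95% counting interval of 2.90 to 109.1. C6.846 had 6, 9 and 10 reads in YY-1 and 1, 6 and 3 in winter, and C2.1067 had 6, 12 and 7 in YY-1 and 0, 3 and 5 in winter. In all 3 genes the raw counts of at least 1 strain ranged more widely than the gap between the strains, and in C6.846 the strains met at 6. C2.1003 was not called without YY-1 replicate b, C2.1067 without that library or winter replicates a or b, and C6.846 without YY-1 replicates b or c or winter replicates a or c.

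The genes called higher were C1.511 and C8.474. C1.511 had 3, 3 and 2 reads in YY-1 and 11, 21 and 7 in winter, at 0.253 ± 0.0437 and 0.851 ± 0.437 CPM (SD, n = 3 each). Every winter library was above every YY-1 library, and winter replicate b was the highest. Neither gene was called without any 1 of the YY-1 libraries or without winter replicate b, and C8.474 was not called without winter replicate a either.

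The genes directly beside the nearly silent ones had fewer reads at the median than other genes outside the list. There were 205 such flanking genes, and the median of their mean CPM was 12.2, where that of all other genes outside the list was 39.6. Gene lengths were not at hand, so these values are reads per gene, not per length, and a difference in length between the 2 sets was not tested. Of the flanking genes, 71 (34.6%) were among the lowest 10% of the genes outside the list, at or below 5.3 CPM. The difference held in each library: the median of the flanking genes was 9.35 to 11.1 CPM in the YY-1 libraries and 8.17 to 8.81 in the winter libraries, and that of all genes outside the list was 36.3 to 38.7 and 36.9 to 37.6. The upper quartile of the flanking genes was 40.7 CPM, near the median of all genes outside the list, 38.7 CPM. Not every neighbour was low: 24 flanking genes (11.7%) were above 100 CPM, where 24.2% of all genes outside the list were. The highest was C5.766 with 1753 CPM.

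This pattern faded within a few genes. The median CPM was 12.2 at 1 place from the nearest nearly silent gene, 26.3 at 2 places, 37.6 at 3 places and 37.9 at 4 or 5 places, and it was 40.2 at more than 20 places. The share of genes in the lowest 10% went from 34.6% at 1 place to 19.6% at 2 places, 12.9% at 3 places and 8.31% at more than 20 places. Genes just above the rule's limit, such as C2.1001, count as outside the list and are among these low neighbours.

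**Figure D5:**
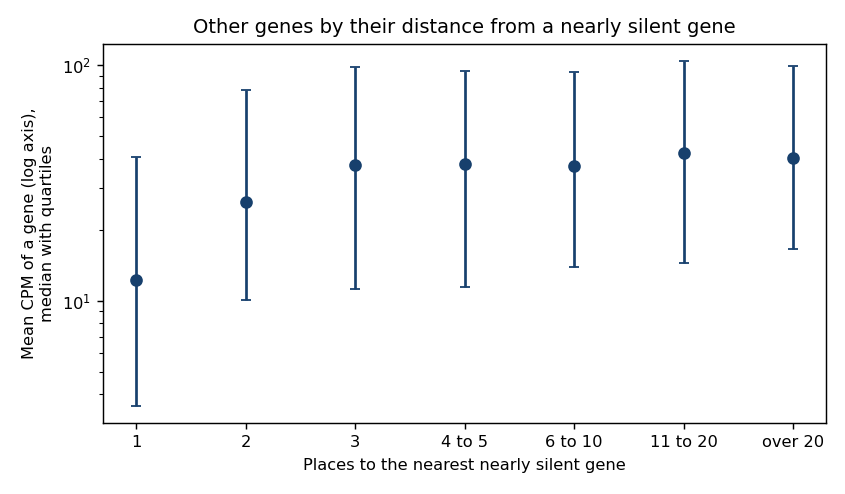
Mean CPM over the 6 libraries (y axis, log scale) of the genes outside the list, by the number of places to the nearest nearly silent gene (x axis). Points are medians and bars reach from the first to the third quartile over genes. The median was 12.2 at 1 place and 40.2 at more than 20 places.

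The strains differed in 113 of the 205 flanking genes in the edgeR fit (55.1%, against 47.1% of all tested genes). Of these, 69 were lower in winter (33.7%, against 25.0%) and 44 higher (21.5%, against 22.1%). The median log2 fold change was -0.20 over the flanking genes and -0.03 over all genes. The share called was 54.2% at 2 places, 46.5% at 3 places and 46.9% at more than 20 places. With 1 library left out, 94 to 108 flanking genes were called, the fewest without winter replicate c, as for all genes.

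The flanking genes with the smallest p had reads in every library of both strains and differed in level. C1.605, next to C1.604, had 122 ± 15.3 CPM in YY-1 and 9.80 ± 1.99 in winter (SD, n = 3 each), a log2 ratio of winter to YY-1 of -3.63 (standard error 0.19, edgeR adjusted p = 8.39e-07). C7.242, next to C7.243, had 42.0 ± 4.86 and 3.99 ± 0.743 CPM. C4.834, next to C4.833, had 69.9 ± 10.1 and 8.07 ± 1.01 CPM. Both were lower in winter, with log2 fold changes of -3.39 and -3.11 (edgeR adjusted p = 1.10e-06 and 1.17e-06). C8.46, next to C8.45, had 52.0 ± 5.01 CPM in YY-1 and 7.17 ± 0.713 in winter, a log2 ratio of -2.86 (edgeR adjusted p = 1.17e-06). C3.421, next to C3.422, was the only one of these 5 that was higher in winter, with 2.10 ± 0.405 CPM in YY-1 and 20.6 ± 0.655 in winter, a log2 ratio of 3.28 (edgeR adjusted p = 1.66e-06). All 5 kept their calls with any library left out.

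The 9 lower genes had 12 flanking genes, of which 5 were lower in winter (C1.605, C2.1066, C5.819, C5.821 and C8.191), 3 were higher (C3.37, C3.39 and C4.509) and 4 did not pass the test. The 2 higher genes had 4 flanking genes, of which 3 were higher in winter (C1.512, C8.473 and C8.475) and 1 did not pass. Of all flanking genes 33.7% were lower and 21.5% higher, and of all tested genes 25.0% and 22.1%. With so few genes, and members picked by the counts that chose them, nothing is read from these numbers. C8.473 had 3.95 ± 0.788 CPM in YY-1 and 25.8 ± 4.25 in winter and C8.475 had 8.05 ± 1.12 and 19.6 ± 2.59 (SD, n = 3 each), with log2 fold changes of 2.71 and 1.28 (edgeR adjusted p = 8.58e-06 and 0.000327). C8.474, without a read in YY-1, lay between 2 genes that were higher in winter. C3.37, C3.39, C4.509 and C5.821 lost their calls when a library was left out.

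None of the 24 genes that the study names by number was nearly silent or beside a nearly silent gene. Of all 7491 listed genes, 1.74% were nearly silent and 205 lay beside one, so nothing is read from this. The study's text gives no number for pksCT, whose expression it calls extremely low, or for the other citrinin cluster genes. It also gives none for the red pigment genes that it reports as low. For pksCT the study does print length-scaled values (RPKM) in both strains, but these were not turned into read counts here. Whether any of these genes is nearly silent was therefore not looked up. The transcription factor gene C6.126 and the aldehyde dehydrogenase gene C6.127 lay 8 and 7 places from C6.134. The genes named for pigment synthesis on C5 lay 43 to 56 places from C5.81. The nearest of all was the transcription factor gene C3.618, 2 places from C3.620, and 7 of the 24 lay within 10 places of a nearly silent gene. The share of all genes within 10 places was not set beside this number, so nothing is read from it. The lowest mean CPM among the 24 was 9.75, in the oxidoreductase gene C1.400.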

How the data were processed

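After FastQC and filtering with the NGS QC Toolkit, the authors mapped the clean reads with TopHat to transcripts predicted from the YY-1 genome, and HTSeq counted those on unique exons. The submitters' processing notes name TopHat2 2.0.8b and HTSeq 0.5.4p2, while the study's methods name other versions of both. Which versions made the deposited counts was not settled. The deposited values are raw counts per gene, with no normalization. Reads that fit several near-identical genes are not counted on unique exons, so a nearly silent gene may have such a copy. The strand is not given in the sources used here, so overlapping genes may share reads.

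The 7491 rows stand for 7493 gene models, since 2 rows each join a pair, and no gene number was missing on a scaffold. A distance is a number of genes, not of bases. No identifier matched the reference gene table, which is of another strain, so names, lengths, coordinates and sequences were not used here.

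Counts of all 7489 genes with at least 1 read were tested between the strains with edgeR 4.0.16 (R 4.3.3): TMM scaling, quasi-likelihood test, strain as the only term, Benjamini-Hochberg adjustment, threshold 0.05. The default filter on low counts was an alternative because it removes 124 of the 130 nearly silent genes. The p-values set the strain difference against the spread between these libraries of a strain, which edgeR estimates partly from all genes together. With 3 libraries per strain, an exact two-sided permutation test cannot go below 0.1. DESeq2 1.42.0, Python 3.11.15, numpy 2.4.6, pandas 2.3.3 and matplotlib 3.10.9 were also used.

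The replicate letters were taken as pairs only by the correlation of deviations from the strain means over the other genes (log2 of CPM plus 1), which was 0.100, 0.300 and 0.126 for a, b and c. The labels do not say that a letter marks a shared batch, and YY-1 replicate a correlated more with winter replicate c (0.207). No pair of libraries of a strain differed as little as sampling noise.

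Genes named are those at 0 throughout, those in or beside the longest runs, the 5 of highest sum, the 10 called genes of smallest p, 5 at most on each side of the rule's limit, the 5 flanking genes of smallest p, those the study names, and those at the densest end, in 1 strain only or on the small scaffolds. The genes, the lists and the tests were chosen with earlier results of these data known. The genes in 1 strain only, pairs, the stretch around C2.1067, C8.187, and flanking genes of called genes were named after their values were seen. Alternatives were other scalings, the low-count filter, DESeq2, the block, each library left out, a stricter threshold, and other limits of the rule, of a run and of an end. Scaled counts in the rule, and ends without C3 and runs without C2, were added after seeing the data.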

Additional observations from a re-analysis of the deposited data

How the results depend on the processing

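The number of genes depends on the rule: 64 genes were nearly silent with a count minimum of 5 and 267 with 20, and leaving out a library gave 151 to 162, because 2 of 5 libraries were then allowed. Genes in runs numbered 18 with a minimum of 5 and 91 with 20 (28.1% and 34.1% of those genes), and 17 in runs of 3 or more. Genes near ends, small scaffolds included, numbered 28 within 50 genes, 31 with a minimum of 20, and 11 without C3. With at least 3 reads required, 50 genes were seen in every YY-1 library and 53 in every winter library.

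The 2 genes called higher became 1 under library totals, 0 with the low-count filter and 0 at an adjusted p below 0.01, and 0 to 2 with a library left out (0 without YY-1 replicate a, b or c, or without winter replicate b). The 9 called lower became 2 with the filter, which tests 6 of the genes, 4 at an adjusted p below 0.01, and 7 to 10 with a library left out. The block by replicate letter, a pairing seen only in the data, gave 1 higher and 10 lower, 115 flanking genes and 3847 of all genes. With 3 genes on each side, 289 of 554 flanking genes were called (52.2%). Over all genes 2672 to 3509 were called with a library left out, and 2357 at an adjusted p below 0.01. The summed log2 ratio stayed between -0.63 and -0.30 under all alternatives run. Depth is a limit, since 24 to 43 of the genes had only 1 or 2 reads in a library.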
